A study of Mus musculus with 6 samples.

Results

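Haemoglobin transcripts were followed through 6 libraries of nuclei from the mouse lumbar spinal cord. They are the 5 genes Hbb-bs, Hbb-bt, Hba-a1, Hba-a2 and Alas2, of 32285 genes in the files. They were picked by symbol, for their level by cell class, by library and by nucleus depth, so those 3 patterns are described and not tested. All mice were C57BL/6 animals aged 110 days that carried SOD1G93A, a mutant human superoxide dismutase used to model amyotrophic lateral sclerosis, and both groups carried it. In 3 libraries the mice were SOD1G93A/PHD1+/+, with intact PHD1, and in the other 3 they were SOD1G93A/PHD1-/-, lacking it. PHD1 is the oxygen-sensing prolyl hydroxylase encoded by Egln2. Nuclei came from lumbar cords that were frozen after dissection, of 3 littermate pairs, and the labels used here do not mention perfusion. Libraries with the same replicate number are set side by side as pairs below, although no label ties a number to a pair.

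Adult haemoglobin is built from alpha-chains and beta-chains, each holding a haem group that binds oxygen. Hba-a1 and Hba-a2 encode the alpha-chain, Hbb-bs and Hbb-bt encode beta-chains, and Alas2 encodes the erythroid form of the enzyme that starts haem synthesis. Mature mouse red cells have no nucleus, and their precursors and youngest circulating forms carry globin transcripts at very high levels. In droplet assays, RNA that is free in the suspension can be counted in a droplet whose own nucleus does not make it.

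The globin genes lie as close pairs. On GRCm38, Hbb-bt occupies chr7:103812524-103813996 and Hbb-bs chr7:103826534-103828096, both on the minus strand, with 12537 bases between them. Hba-a1 occupies chr11:32283511-32284465 and Hba-a2 chr11:32296489-32297298, both on the plus strand, with 12023 bases between them. Each of the 4 has 3 exons. Alas2 lies on chrX:150547375-150570638, on the plus strand, and has 11 exons. The last 90 coding bases before the stop codon, from the GENCODE transcripts, are printed because they show how little separates the copies. The capital marks the base that differs within a pair.
Hba-a1: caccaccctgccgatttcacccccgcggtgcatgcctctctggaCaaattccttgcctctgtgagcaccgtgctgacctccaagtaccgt
Hba-a2: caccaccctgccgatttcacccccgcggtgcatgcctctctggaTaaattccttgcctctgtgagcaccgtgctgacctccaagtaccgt
Hbb-bs: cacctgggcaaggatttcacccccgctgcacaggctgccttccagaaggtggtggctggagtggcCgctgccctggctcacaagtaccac
Hbb-bt: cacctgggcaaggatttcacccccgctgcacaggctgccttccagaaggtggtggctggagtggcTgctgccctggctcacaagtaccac
Over the whole coding part the alpha pair differed at 1 of 426 bases and the beta pair at 1 of 441. Of the 90-base windows in the last 300 bases of the transcript, 105 of 211 were the same in both alpha genes and 51 of 211 in both beta genes. Reads from those stretches cannot be given to either copy, so the split within a pair is uncertain. The sum of the 4 globin genes, called globin UMIs below, does not depend on that split. It would lack any shared reads that were counted for neither copy, and this was not checked.

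The Hba-a2 promoter is printed because it carries 3 of the 4 sets of letters searched for. It spans 100 to 4 bases upstream of the RefSeq start, chr11:32296392-32296488 on GRCm38, plus strand. The capitals mark CCAAT, then the letters CACCC, and last the letters TATAA.
Hba-a2 promoter: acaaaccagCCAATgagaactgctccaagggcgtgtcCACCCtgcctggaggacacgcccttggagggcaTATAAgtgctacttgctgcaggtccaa
Both strands of the 100 bases upstream of the start were searched in 32851 RefSeq promoters. TATAA was found in the 4 globin genes and in 10.2% of all promoters, CCAAT in the 4 globin genes and in 18.9%, and CACCC in all 5 members and in 27.2%. GATAA was found in Alas2 alone among the members and in 8.55% of all promoters. The promoters of Hba-a1 and Hba-a2 share an unbroken run of 297 of 300 bases.

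The libraries held 5387 to 9174 barcodes and 14120298 to 33794389 unique molecular identifiers (UMIs, each counting 1 captured molecule), and 41906 of 42758 barcodes were kept as nuclei. Replicates 1 of both groups stood apart. Their median was 1363 and 1365 UMIs per kept nucleus against 2290.5 to 2902 in the others, their barcodes come from another barcode list, and they share 86 barcodes with each other against 0 to 14 in the other pairs of libraries. Doublet calling marked 0 and 1 nuclei there against 104 to 259 elsewhere. In the 11 cell classes compared, all fixed markers of each class were higher in it than in the rest of the nuclei. The classes were named from these same markers, so this is no separate check of the names. Egln2 was at 29.6, 18.8 and 16.4 CPM (counts of a gene for each 1000000 UMIs) in the PHD1+/+ libraries and 9.66, 9.04 and 10.1 in the PHD1-/- libraries, with a log2 fold change of -1.17 (SE 0.26) and an edgeR adjusted p of 0.999996. It was lower in every PHD1-/- library, and how the allele was made is not described in the sources used here.

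Globin transcripts differed widely between libraries. Over all deposited barcodes the 4 genes summed to 599, 60.6 and 208 CPM in PHD1+/+ replicates 1 to 3. In PHD1-/- replicates 1 to 3 they summed to 1742, 553 and 302 CPM. The highest library, PHD1-/- replicate 1, was 28.8 times the lowest, PHD1+/+ replicate 2. Exact Poisson intervals, which cover counting error only, ran from 588 to 610 and from 57.9 to 63.3 CPM in PHD1+/+ replicates 1 and 2, so counting error is small beside the spread. They do not cover which barcodes were captured. The variance of globin UMIs over barcodes was 42.0 (PHD1+/+ replicate 2) to 911 (PHD1-/- replicate 1) times their mean. In these sums over a library, the number of barcodes with globin UMIs and the UMIs in each cannot be told apart. Counts by barcode are given below.

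Among the beta genes, Hbb-bs gave the most UMIs in every library. It was at 313, 35.1 and 123 CPM in the PHD1+/+ libraries and at 877, 326 and 168 in the PHD1-/- libraries. Hbb-bt was at 42.6, 6.96 and 28.03 CPM in the PHD1+/+ libraries and at 141, 65.6 and 32.1 in the PHD1-/- libraries. The groups overlap for both genes, with PHD1+/+ replicate 1 above PHD1-/- replicate 3.

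The alpha genes were also highest in PHD1-/- replicate 1 and lowest in PHD1+/+ replicate 2. Hba-a1 was at 134, 10.2 and 31.5 CPM in the PHD1+/+ libraries and at 394, 85.8 and 56.1 in the PHD1-/- libraries. Hba-a2 was at 110, 8.29 and 25.8 CPM in the PHD1+/+ libraries and at 331, 75.5 and 45.4 in the PHD1-/- libraries. PHD1+/+ replicate 1 lay above PHD1-/- replicates 2 and 3 for both alpha genes.

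Alas2 did not share this pattern. It was at 4.66, 11.6 and 8.63 CPM in the PHD1+/+ libraries and at 6.87, 10.6 and 8.51 in the PHD1-/- libraries, a range of 2.49-fold. Its highest library, PHD1+/+ replicate 2, was the lowest for globin UMIs. For each 1000 globin UMIs there were 192 Alas2 UMIs in that library and 3.94 in PHD1-/- replicate 1.

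**Figure D1:**
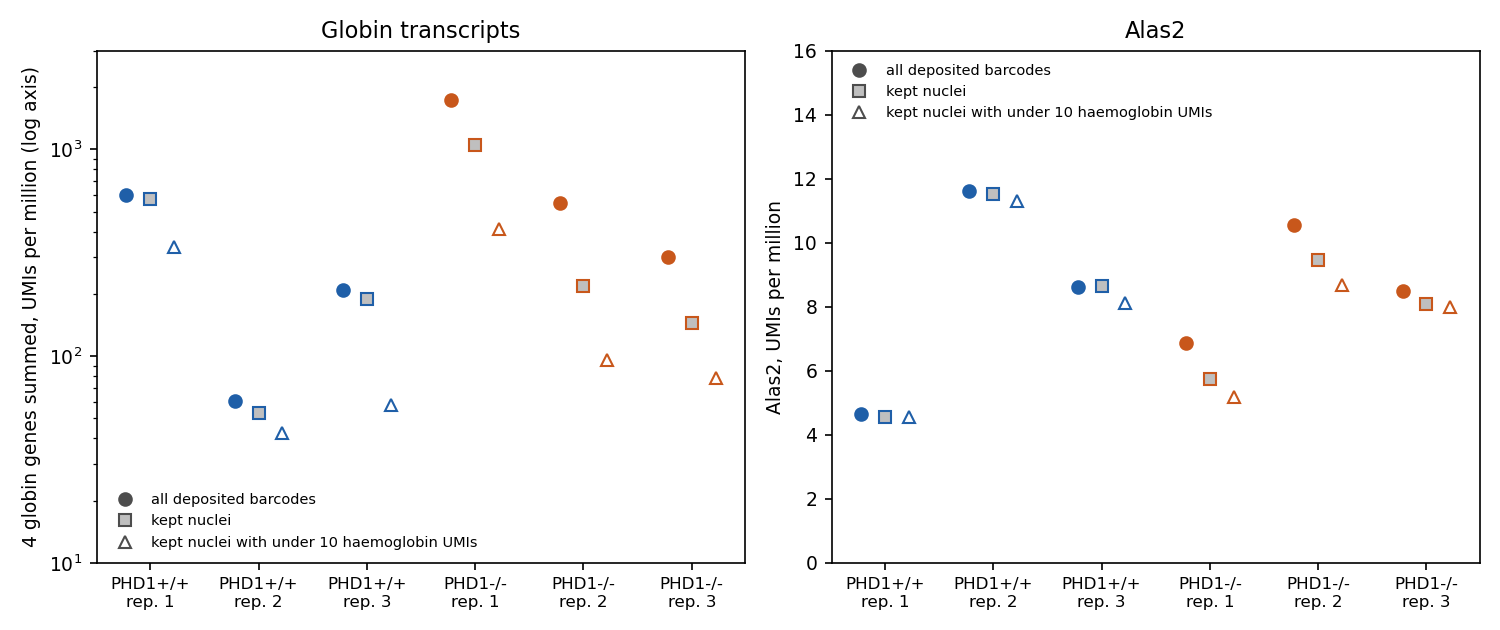
CPM of the 4 globin genes summed (left, log axis, with exact 95% Poisson intervals that are mostly smaller than the symbols) and of Alas2 (right) in each library, over all deposited barcodes, kept nuclei, and kept nuclei with under 10 globin UMIs. Globin levels run from 60.6 to 1742 over deposited barcodes while Alas2 stays between 4.66 and 11.6.

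Most globin UMIs sat in few barcodes. Of 70262 globin UMIs, 71.6% were in the 368 barcodes that held 10 or more, which are 0.861% of all barcodes and are called globin-rich here. They numbered 134, 13 and 24 in the PHD1+/+ libraries and 97, 44 and 56 in the PHD1-/- libraries. They held 46.3%, 30.7% and 72.5% of the globin UMIs of the PHD1+/+ libraries, and 77.2%, 82.9% and 73.7% of those of the PHD1-/- libraries. The other 42390 barcodes held 19920 globin UMIs. Whether the transcripts of either are free RNA was not tested.

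In 48 barcodes, at least 25% of all UMIs were globin. Of these globin-dominated barcodes, 1, 1 and 2 were in the PHD1+/+ libraries and 12, 21 and 11 in the PHD1-/- libraries. They held 43.0% of all globin UMIs but had a median of only 674.5 UMIs and 214.5 genes. The highest, in PHD1-/- replicate 1, held 2707 globin UMIs among 2968. With 10% of UMIs as the limit, 4, 1 and 3 barcodes of the PHD1+/+ libraries and 20, 22 and 15 of the PHD1-/- libraries passed. With 5% the numbers were 8, 3 and 8 against 27, 26 and 17, again without overlap. With 1% of UMIs as the limit they were 59, 6 and 18 against 61, 35 and 38, and the groups overlap. These numbers were not tested.

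Most globin-dominated barcodes were removed by the filters, 42 of 48, and 41 of these had under 300 genes. Barcodes that were not kept held 39.3% of all globin UMIs. Among kept nuclei the level was 573, 53.3 and 189 CPM in the PHD1+/+ libraries (mean 272 ± 269, SD, n = 3) and 1045, 219 and 145 in the PHD1-/- libraries (470 ± 500, SD, n = 3). The PHD1-/- library of a pair was 1.82, 4.10 and 0.767 times its PHD1+/+ partner in pairs 1 to 3. Over all deposited barcodes the ratios were 2.91, 9.13 and 1.45. Replicates 1 carried much of both means, which were 121 CPM for PHD1+/+ and 182 CPM for PHD1-/- without them. Among nuclei with under 10 globin UMIs the means were 146 ± 165 and 196 ± 188 CPM (SD, n = 3).

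**Figure D2:**
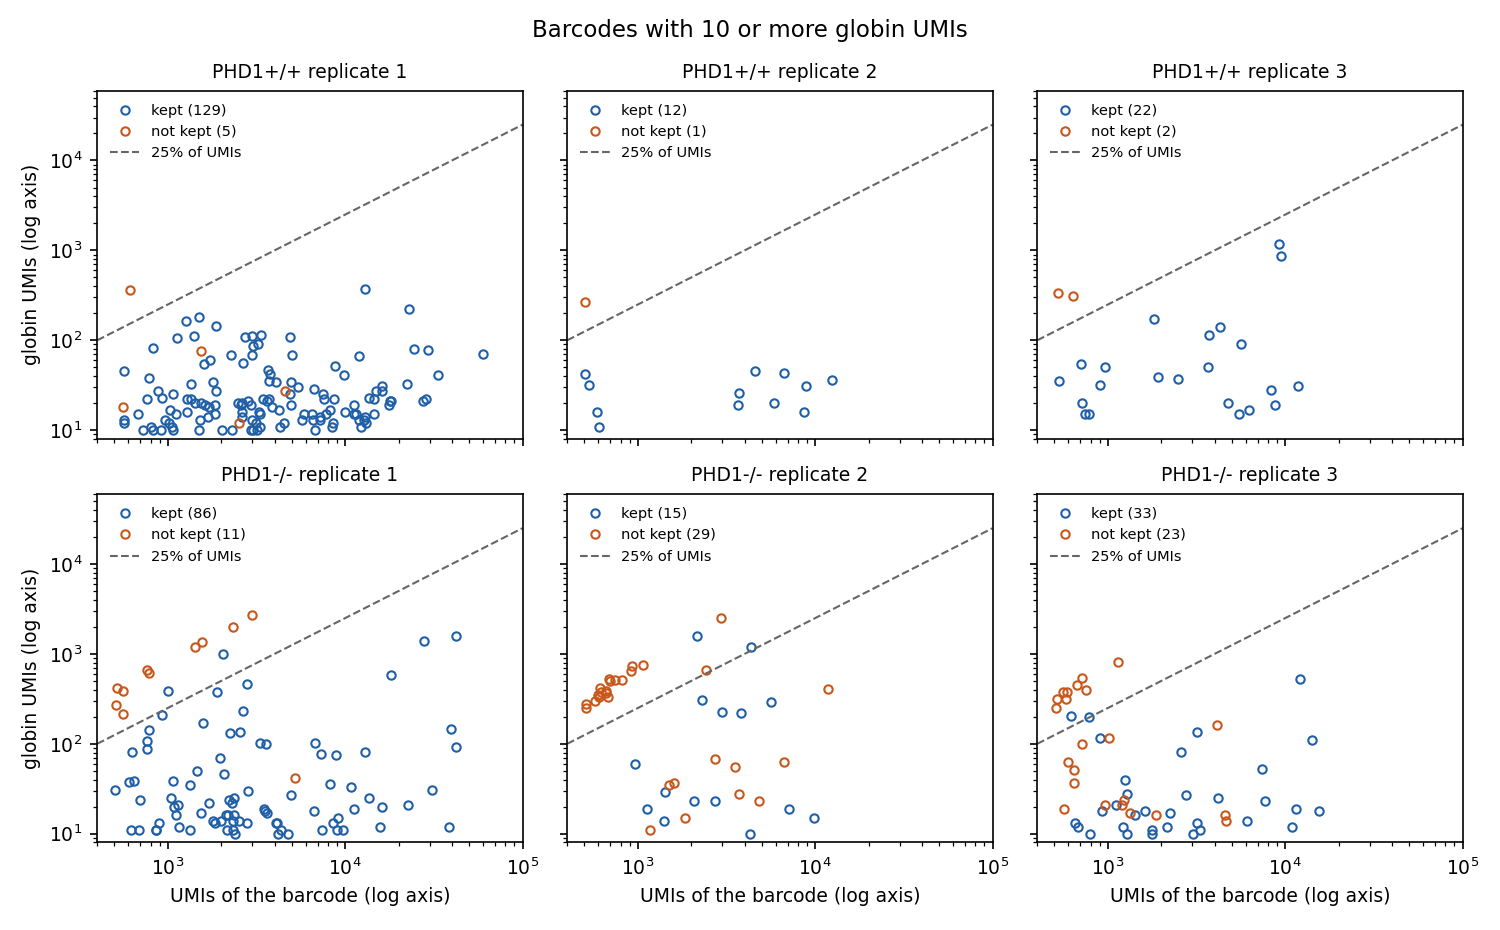
Globin UMIs against all UMIs (both log axes) for the 368 barcodes with 10 or more globin UMIs, by library, with kept and not kept barcodes in different colours and their numbers in each key. The dashed line marks 25% of UMIs. Above it lie 1, 1 and 2 barcodes of the PHD1+/+ libraries and 12, 21 and 11 of the PHD1-/- libraries.

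The globin-dominated barcodes carried some other transcripts of red cells. Of 26 genes for red cell membrane and cytoplasm, 17 were higher there than in barcodes that were not globin-rich, 2 were lower and 7 had 0 UMIs. Of 8 genes restricted to other cell classes, 6 were higher too, 1 was lower and 1 had 0 UMIs. These counts therefore do not set the red cell genes apart. A single UMI there equals 54.7 CPM, so a rare gene with 1 UMI counts as higher. After globin UMIs were left out of the total, the following levels were found there, for genes picked after their values were seen. Bpgm, which makes the red cell metabolite that lowers oxygen affinity, was at 6888 CPM, against 25.4 in barcodes that were not globin-rich. Mkrn1 was at 5029 against 54.0 CPM. Alas2 was at 4974 against 8.21 CPM, and these 48 barcodes held 91 of its 1370 UMIs. Slc4a1, the red cell anion exchanger, was at 1148 against 0.26 CPM, but at 0 CPM in the globin-rich barcodes of PHD1-/- replicate 1. These levels pool the barcodes of all libraries, most of them from PHD1-/- libraries. Epb42, Rhag and Aqp1, which encode red cell membrane proteins, had 0 UMIs. A count of 0 has an upper limit of 202 CPM there. These genes were at only 0.07, 0.14 and 0.65 CPM in barcodes that were not globin-rich, so it says little. The anchor protein gene Ank1 was at 109 against 147 CPM and the transferrin receptor gene Tfrc at 54.7 against 56.1 CPM. Ank1 and Tfrc rest on only 2 and 1 UMIs in the globin-dominated barcodes. Malat1, an RNA retained in the nucleus, was at 3984, 0 and 1934 CPM in the globin-dominated barcodes of the PHD1+/+ libraries and at 61075, 1752 and 938 in those of the PHD1-/- libraries. In barcodes that were not globin-rich it was at 106548, 37129 and 41211 CPM, and at 99956, 48812 and 40710. It was thus lower in the globin-dominated barcodes of all 6 libraries, with PHD1-/- replicate 1 far above the other 5.

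Embryonic globin genes were nearly absent. Hbb-bh1, Hbb-bh2 and Hba-x had 0 UMIs in all 6 libraries, and the embryonic beta-like gene Hbb-y had 1. Of 8 erythroid transcription factors, 7 had 0 UMIs in the globin-dominated barcodes, among them Gata1 and Klf1 with 40 and 74 UMIs in all. Lmo2, which endothelial cells also express, had 2462 UMIs in all and was at 492 CPM in the globin-dominated barcodes against 15.4 in those that were not globin-rich. Bcl11a, which neurons also express, had 13156 UMIs in all. Among 12 red cell genes picked after their values were seen, 3 or more were found together in 19 barcodes. Of these, 15 were globin-rich and 3 were globin-dominated, and 0, 4 and 5 were in the PHD1+/+ libraries and 3, 4 and 3 in the PHD1-/- libraries.

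All 368 globin-rich barcodes were set against the rest of their own library, again without globin UMIs in the totals and as a description, since globin UMIs chose them. The 14160 genes with at least 500 UMIs had a median log2 ratio of -0.43, and 7.03% were higher in all 6 libraries. Of the haem synthesis genes, 3 of 9 were higher in all 6: Alas2 by 3.46, Urod by 1.47 and Fech, which inserts the iron, by 1.28 on the log2 scale. Of 13 genes for red cell membrane and cytoplasm, 6 were higher in all 6, among them Bpgm by 2.78 and Blvrb, a haem-breakdown reductase, by 2.72. Alas2 itself was at 5.87, 159 and 144 CPM in the globin-rich barcodes of the PHD1+/+ libraries against 4.602, 11.3 and 8.13 in the rest. In the PHD1-/- libraries it was at 49.4, 718 and 104 CPM against 5.17, 8.61 and 7.99.

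The same barcodes also differed in markers of other cell types and in measures of RNA quality. Endothelial markers had a median log2 ratio of 3.52 and 4 of 6 were higher in all 6 libraries, Cldn5 by 4.72. Mitochondrial genome transcripts had a median log2 ratio of 3.02, with 9 of 12 higher in all 6. Malat1 was lower in all 6 libraries, with a mean log2 ratio of -0.67. Microglia markers had a median of -1.22 and 5 of 8 were lower in all 6. Neutrophil genes had a median of 2.13, over only 3 genes, with 0 higher in all 6. The part of these in the globin level of a library was not tested.

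Globin-rich barcodes were unevenly spread over the classes. Of 389 endothelial-like nuclei, 52 were globin-rich, or 13.4%. They numbered 19, 1 and 7 in the PHD1+/+ libraries and 23, 0 and 2 in the PHD1-/- libraries, so most came from replicates 1. The share was 1.47% of 955 fibroblast-like nuclei, 0.189% of 15839 neuron-like nuclei and 0.149% of 13450 oligodendrocyte-like nuclei. It was 0 of 1058 oligodendrocyte precursor (OPC)-like nuclei, 0 of 316 newly formed oligodendrocyte-like nuclei and 0 of 255 mural-like nuclei. A further 166 were in clusters that stayed unnamed, 131 of them in sub-clusters of 1 cluster in which astrocyte, endothelial and fibroblast markers were high together. Those numbered 91, 0 and 0 in the PHD1+/+ libraries and 33, 1 and 6 in the PHD1-/- libraries, so most of these too came from replicates 1.

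The endothelial-like level rested on few nuclei. Kept endothelial-like nuclei were at 4849, 795 and 34389 globin CPM in the PHD1+/+ libraries and at 18800, 1511 and 1019 in the PHD1-/- libraries. In PHD1+/+ replicate 3, a single nucleus gave 1163 of the 2633 globin UMIs of 22 endothelial-like nuclei. In PHD1-/- replicate 1, a single nucleus gave 1591 of 4795. Different clusters hold most endothelial-like nuclei in replicates 1 and in replicates 2 and 3. The class is made of 4 sub-clusters of the cluster that also holds the 131 unnamed globin-rich nuclei. Their mitochondrial share of UMIs was 0.734%, 1.36%, 1.57% and 2.30%, against 0.219% in all barcodes that were not globin-rich, and its part in the globin level was not tested. The mean over the 6 libraries was 10227 ± 13682 CPM (SD, n = 6), and 948 ± 541 among nuclei with under 10 globin UMIs.

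Below 10 globin UMIs, a nucleus of most classes held about the same number of globin UMIs. In PHD1+/+ replicates 1 to 3 the mean over all such nuclei was 0.672, 0.167 and 0.259 globin UMIs per nucleus. In PHD1-/- replicates 1 to 3 it was 0.860, 0.430 and 0.365. Across 10 classes, the endothelial-like class left aside, the highest class was only 1.57 to 3.36 times the lowest within a library. Over the same classes the median UMIs per nucleus differed 3.62-fold to 6.83-fold. The limit of 10 globin UMIs itself narrows the globin range. Genes chosen because they are restricted to a class had no such limit and were taken over all 11 classes, so the ranges are not like for like. Mbp, a myelin protein, differed by 8.09-fold to 205-fold. Syt1, a synaptic vesicle protein, differed by 66.9-fold to 323-fold in 5 libraries and had 0 UMIs in 1 class of the other.

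The class order of a library therefore depends on the scale. In CPM, neuron-like nuclei with under 10 globin UMIs were the lowest of the 11 classes in all 6 libraries, at 183, 21.8 and 32.03 in the PHD1+/+ and 246, 50.8 and 42.5 in the PHD1-/- libraries. Their mean was 96.1 ± 94.5 CPM, against 305 ± 278 in oligodendrocyte-like and 387 ± 344 in microglia-like nuclei (SD, n = 6). Per nucleus the same 3 classes held 0.406 ± 0.207, 0.4004 ± 0.228 and 0.427 ± 0.265 globin UMIs. These neighbours do not differ beyond their spread. Their median depths averaged 5208, 1471 and 1174 UMIs per nucleus.

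Endothelial-like nuclei were highest per nucleus in all 6 libraries even below 10 globin UMIs. They held 0.953, 0.286 and 1.93 globin UMIs per nucleus in the PHD1+/+ libraries and 1.84, 2.00 and 1.13 in the PHD1-/- libraries. In PHD1+/+ replicate 2 the fibroblast-like class, at 0.284, was next to it and did not stand apart. Only 11 to 150 nuclei of a library lie behind these values. Fibroblast-like nuclei were next over the 6 libraries, at 0.634 ± 0.253 globin UMIs per nucleus (SD, n = 6), and the other 9 classes had means between 0.373 and 0.499.

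Shares of nuclei with a globin UMI showed the same. Thinned to 500 UMIs, which all kept nuclei reach, 39.7% ± 20.3 of endothelial-like nuclei were expected to hold a globin UMI, against 14.4% ± 10.9 of oligodendrocyte-like and 5.48% ± 4.78 of neuron-like nuclei (SD, n = 6). Unthinned, the shares were 55.4%, 29.6% and 29.8%. After thinning, the neuron-like share was the lowest of the 11 classes. The median depths averaged 1138 UMIs in endothelial-like and 5208 in neuron-like nuclei with under 10 globin UMIs.

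**Figure D3:**
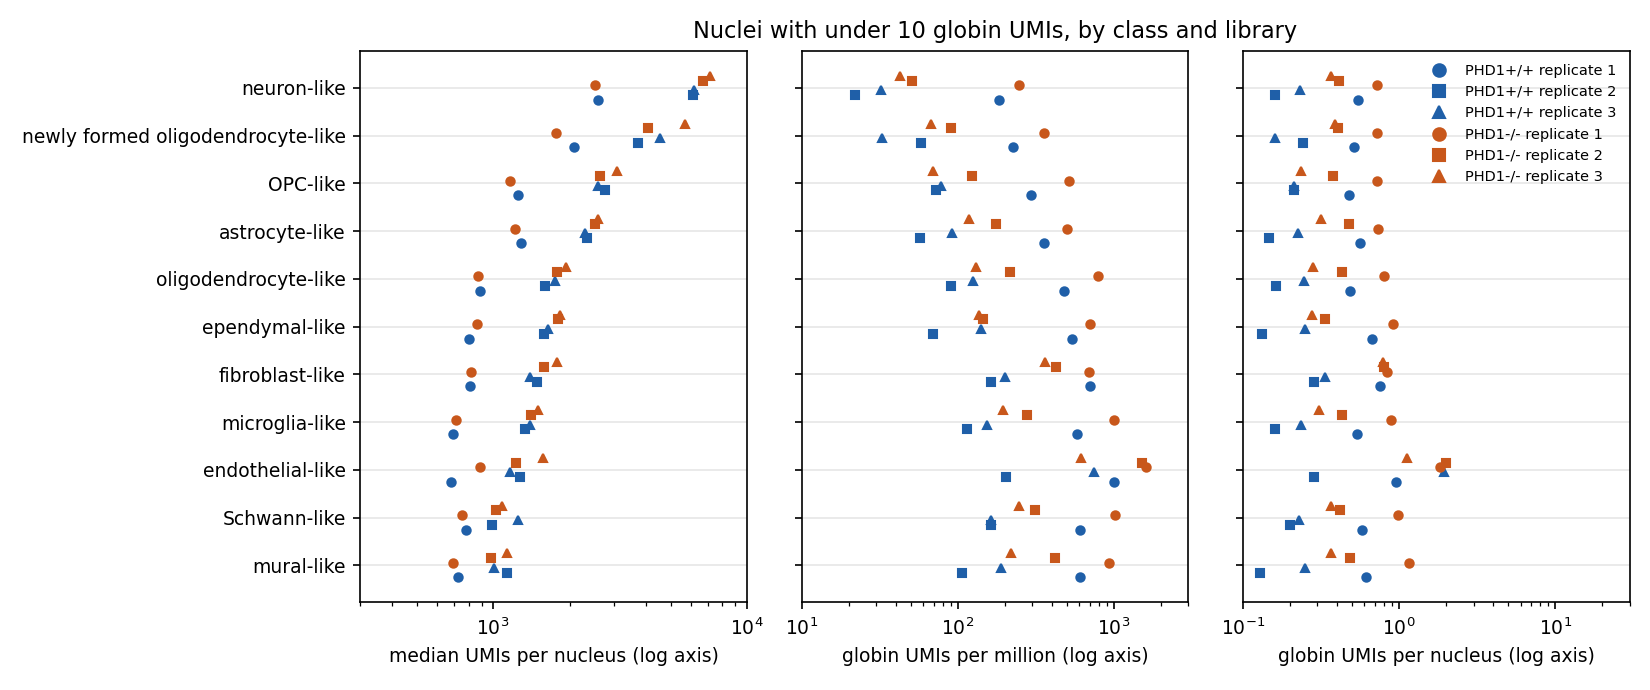
Median UMIs per nucleus, globin CPM and globin UMIs per nucleus (log axes) in each class and library, for nuclei with under 10 globin UMIs, with classes ordered by depth. Levels in CPM are lowest where depth is highest, while globin UMIs per nucleus of a library differ little between classes, except that endothelial-like nuclei lie at 0.286 to 2.00.

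The same held over depth. In replicates 2 and 3, nuclei of 8000 or more UMIs held 1.24 and 1.03 times (PHD1+/+) and 1.03 and 0.949 times (PHD1-/-) the globin UMIs of nuclei of 500 to under 1000 UMIs, for nuclei with under 10. Median depth rose by 13.1 to 14.1 times between those bins in these 4 libraries. In replicates 1 the deepest nuclei held 2.89 (PHD1+/+) and 2.01 (PHD1-/-) times the globin UMIs of the shallowest. In CPM, the shallowest bin was 5.63, 12.8 and 15.7 times the deepest in the PHD1+/+ libraries and 8.18, 15.5 and 17.7 times in the PHD1-/- libraries. The bins differ in class as well as in depth, but within oligodendrocyte-like nuclei alone the ratio of the deepest bin to the shallowest was 1.04 to 1.56, over a depth range of 2.83-fold to 5.68-fold. Within neuron-like nuclei it was 1.33 to 4.54 over 6.13-fold to 11.8-fold, with only 4 to 23 globin UMIs in the bin that held fewest.

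Globin-rich nuclei change this picture. Over all kept nuclei, the deepest bin held 14.6, 1.03 and 3.81 times the globin UMIs per nucleus of the shallowest in the PHD1+/+ libraries, and 23.9, 0.853 and 0.677 times in the PHD1-/- libraries. Alas2 UMIs per nucleus were higher in deeper nuclei in every library instead. Below 10 globin UMIs it went from 1.76, 4.598 and 10.3 UMIs per 1000 nuclei in the shallowest bin of the PHD1+/+ libraries to 65.8, 178 and 127 in the deepest. In the PHD1-/- libraries it went from 2.11, 3.59 and 2.08 to 61.2, 129 and 119. In CPM the order was not the same in every library: the PHD1+/+ libraries went from 2.39, 5.74 and 13.03 to 5.49, 13.996 and 9.95, and the PHD1-/- libraries from 2.87, 4.41 and 2.66 to 5.08, 9.92 and 9.08. PHD1+/+ replicate 3 was thus lower in its deepest bin. The bins differ in class too: neuron-like nuclei made up 0.359% to 3.33% of the shallowest and 38.1% to 97.0% of the deepest bin, and their part in this was not tested.

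**Figure D4:**
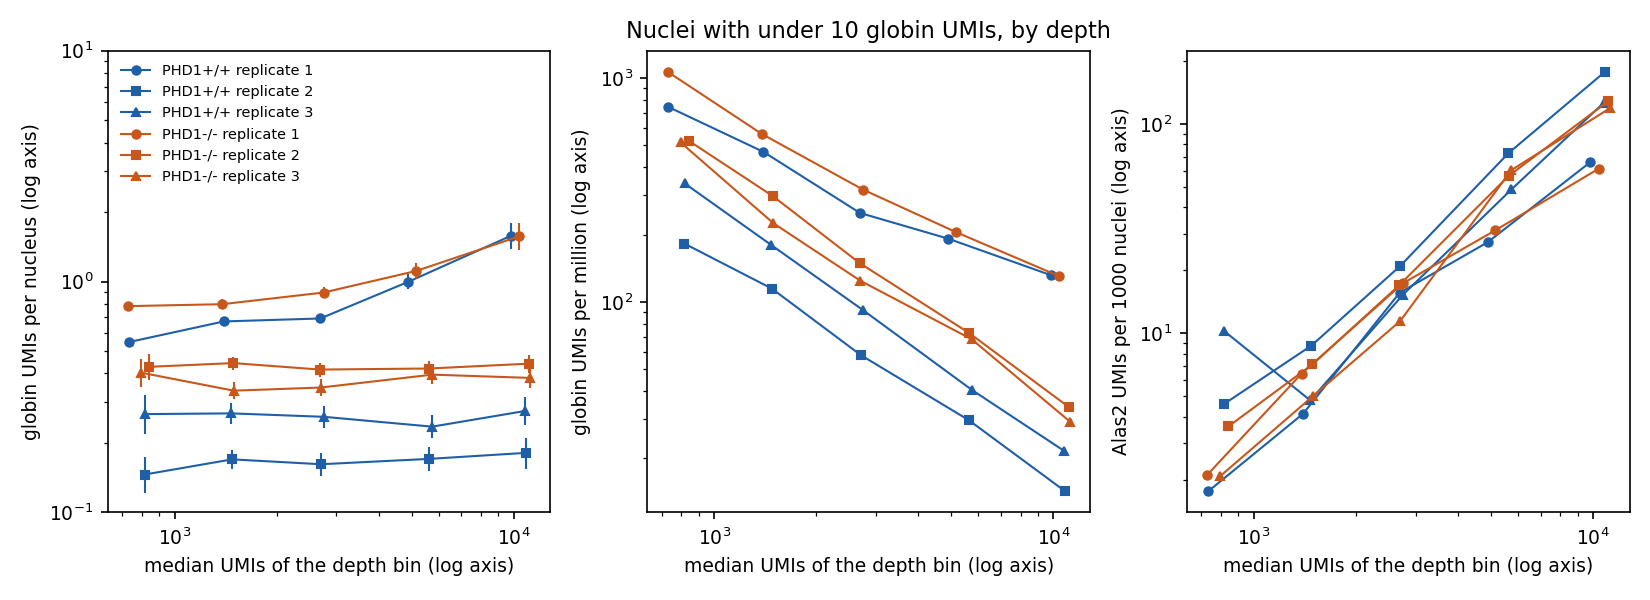
Globin UMIs per nucleus (left, with exact 95% Poisson intervals), globin CPM (middle) and Alas2 UMIs per 1000 nuclei (right), against the median UMIs of 5 depth bins, all on log axes, by library, for nuclei with under 10 globin UMIs. Globin UMIs per nucleus are nearly level over depth in replicates 2 and 3, and Alas2 per nucleus is 12.3 to 57.2 times higher in the deepest bin than in the shallowest.

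By class, Alas2 was highest in CPM in neuron-like nuclei among those with under 10 globin UMIs, at 9.35 ± 2.87 CPM (SD, n = 6), against means of 1.68 to 4.46 in the other 10 classes. In kept neuron-like nuclei it was at 6.17, 13.8 and 9.75 CPM in the PHD1+/+ libraries and at 6.30, 10.5 and 9.74 in the PHD1-/- libraries. The other classes hold few Alas2 UMIs: kept oligodendrocyte-like nuclei gave 5 to 30 in a library. The mean of 20.7 ± 41.8 CPM in kept endothelial-like nuclei comes from 13 UMIs, 8 of them in PHD1+/+ replicate 3 and 5 in PHD1-/- replicate 1.

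The share of beta among globin UMIs differed between libraries. Beta genes gave 59.3%, 69.5% and 72.5% of globin UMIs in the PHD1+/+ libraries and 58.4%, 70.8% and 66.3% in the PHD1-/- libraries, over all deposited barcodes. Replicates 1 were lowest in both groups. In globin-rich barcodes the shares were 58.1%, 69.3% and 73.0% and 58.6%, 70.9% and 66.3%. In kept nuclei with under 10 globin UMIs they were 60.5%, 69.8% and 71.2% and 57.7%, 70.9% and 66.5%. Single classes with at least 20 globin UMIs in a library ran from 49.2% to 86.8%. The exact 95% interval was wider than the range of the 6 libraries in 41 of these 56, so classes were not compared. This share does not depend on the uncertain split within a pair. It could depend on shared reads counted for neither copy, which was not checked. Shared windows were more frequent in the alpha pair (105 of 211) than in the beta pair (51 of 211).

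Within the pairs, Hba-a2 gave 44.7% to 46.8% of alpha UMIs in the 6 libraries. Hbb-bt gave 11.996%, 16.5% and 18.6% of beta UMIs in the PHD1+/+ libraries and 13.8%, 16.8% and 16.02% in the PHD1-/- libraries. The alpha split thus moved little, and the beta split was again lowest in replicates 1.

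Other genes with a like pattern over classes and libraries were sought among 14085 genes with at least 500 UMIs, on log2(CPM + 1) over 59 sums of 1 class in 1 library. The 5 non-members with the highest Pearson r with summed globin UMIs were the ribosomal protein genes Rpl35a (0.86), Rpl27a (0.86), Rpl38 (0.85), Rpl21 (0.85) and Rpl10 (0.84). The members themselves had r of 1.00 (Hbb-bs), 0.96 (Hbb-bt), 0.93 (Hba-a1), 0.98 (Hba-a2) and 0.12 (Alas2). Median UMIs per nucleus had r of -0.65 over the same points. The points share libraries and depth, so these values are a description. By Spearman's rho, only Rpl10 of the 5 stayed among the top 5.

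The design also compares PHD1-/- with PHD1+/+, which was tested on counts summed per library. Over all kept nuclei, none of the 5 members passed the edgeR quasi-likelihood test at an adjusted p of 0.05, and 0% of the 19303 genes tested did. Without adjustment 96 genes were under 0.05. DESeq2 called 0 genes too, with 93 under 0.05 unadjusted. The log2 fold change of PHD1-/- over PHD1+/+ was 0.66 (SE 0.94) for Hbb-bs, 0.85 (SE 0.84) for Hbb-bt, 0.91 (SE 1.14) for Hba-a1, 0.90 (SE 1.13) for Hba-a2 and -0.08 (SE 0.38) for Alas2, each with an edgeR adjusted p of 0.999996.

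The direction of the globin values turned when 1 library was left out. Without PHD1-/- replicate 1 they turned to -0.57, -0.18, -0.69 and -0.69 in the same order. In kept nuclei 0 of 5 members were higher in every PHD1-/- library than in every PHD1+/+ library, and 0 were lower, where 2.14% and 2.31% of all genes were. Over all deposited barcodes the globin log2 fold changes were 1.53 to 1.64 with an edgeR adjusted p of 0.999949, and again 0 of 5 members were higher and 0 lower without overlap, against 2.16% and 2.26% of genes. Within replicates 2 and 3 alone the globin values were 0.49, 0.45, 0.90 and 0.89, with edgeR adjusted p of 0.997444 or more. With the pairs as a block, the values were 0.72 (SE 0.40), 0.84 (SE 0.50), 1.01 (SE 0.36) and 0.98 (SE 0.36), and the lowest edgeR adjusted p of a member was 0.817.

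Within cell classes, 32 of 55 tests of a member in a class could be made, the others falling under the filter on low counts. None passed in edgeR, where 0% of all class-by-gene tests were called, and 5 were under 0.05 without adjustment. DESeq2 called 0 members, with 7 under 0.05 unadjusted, and 0.00133% of all class-by-gene tests. The log2 fold change was above 0 in 26 of 30 globin tests, with a median of 0.98 and a range from -1.21 to 2.28. The 4 below 0 were the globin genes in endothelial-like nuclei. Over all nuclei 48.2% of all genes were above 0. The globin genes move together and the classes come from the same libraries, so these tests are not independent and their number adds little.

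With the pairs as a block, 6 member tests passed in edgeR, where 0.0583% of all class-by-gene tests did. In neuron-like nuclei, where 0.197% of genes were called, Hbb-bs rose by 0.71 (SE 0.10, edgeR adjusted p = 0.0411), Hba-a1 by 0.84 (SE 0.10, 0.0215) and Hba-a2 by 0.75 (SE 0.11, 0.0467) on the log2 scale in PHD1-/-. Hbb-bt, at 0.99 (SE 0.19), had an adjusted p of 0.0999 and Alas2, at -0.16 (SE 0.14), one of 0.735. Globin UMIs in kept neuron-like nuclei were at 203, 31.6 and 35.0 CPM in the PHD1+/+ libraries and at 358, 61.7 and 48.8 in the PHD1-/- libraries, higher in the PHD1-/- library of each of 3 pairs.

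In ependymal-like nuclei, where 0.103% of genes were called with the block, Hbb-bs rose by 1.73 (SE 0.35, edgeR adjusted p = 0.0076), Hba-a1 by 2.24 (SE 0.39, 0.000784) and Hba-a2 by 1.98 (SE 0.40, 0.0076). The globin genes summed to 537, 69.4 and 140 CPM in the PHD1+/+ libraries and to 804, 146 and 1790 in the PHD1-/- libraries. A single nucleus gave 529 of the 571 globin UMIs of PHD1-/- replicate 3. Without globin-rich nuclei that library was at 137 CPM, against 140 in its partner.

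Without globin-rich nuclei, 0 of 26 member tests passed in edgeR, with the block or without it, although with the block 0.0214% of all tests were called and 14 member tests were under 0.05 unadjusted. Without the block 0% of tests were called and 0 member tests were under 0.05 unadjusted. In neuron-like nuclei the blocked log2 fold change of Hba-a1 was then 0.72 (SE 0.13, adjusted p = 0.0912). This setting was added after the data were seen.

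Replicates 1 stand apart, so the block was also run on replicates 2 and 3 alone, likewise added after the data were seen. Of 27 member tests 10 passed in edgeR, where 0.361% of all tests did. They were all 4 globin genes in oligodendrocyte-like nuclei, from 0.99 to 1.15 on the log2 scale, Hbb-bs and Hba-a1 in neuron-like nuclei (0.70 and 0.80), and Hbb-bs in microglia-like nuclei (1.14). In ependymal-like nuclei Hbb-bs passed at 3.11, and in fibroblast-like nuclei Hba-a1 at 3.23 and Hba-a2 at 2.58. In the last class, a single nucleus of PHD1-/- replicate 2 gave 218 of 303 globin UMIs. In oligodendrocyte-like nuclei the ratio in globin CPM was 3.54 in pair 2 and only 1.07 in pair 3. Single nuclei of PHD1-/- replicate 2 held 305 and 288 of the 1925 globin UMIs of that class. Globin log2 fold changes over the classes ran from -4.94 to 3.23 in this setting. Only 4 libraries with a block for the pairs leave little from which to estimate error.

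The count of classes above 1 depends on the scale. Below 10 globin UMIs, globin UMIs per nucleus were higher in the PHD1-/- library of all 3 pairs in 10 of 11 classes, and the exception was the endothelial-like class in pair 3. In CPM, 7 of 11 classes were higher in all 3 pairs below 10 globin UMIs, and 8 of 11 over all kept nuclei. The classes come from the same libraries, so they are not independent of each other. Over all nuclei with under 10, the ratio of globin UMIs per nucleus was 1.28, 2.58 and 1.41.

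**Figure D5:**
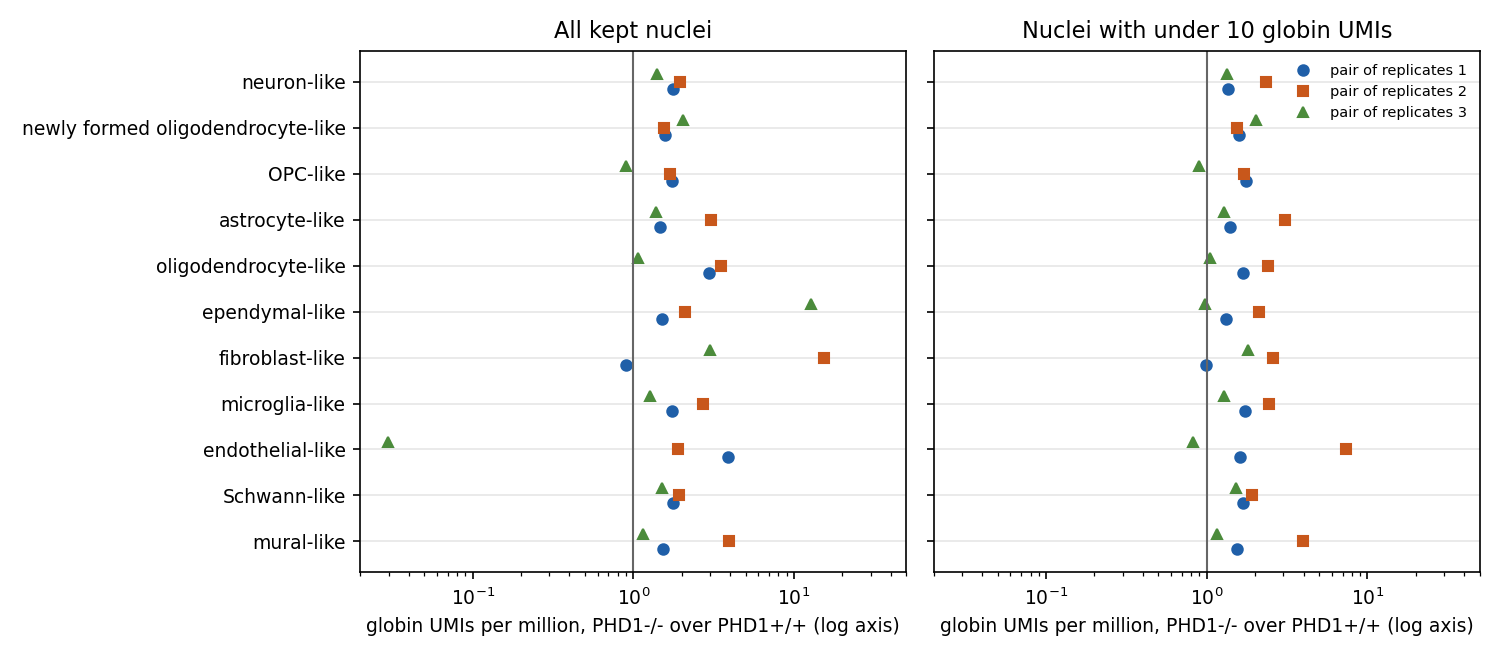
Globin CPM of the PHD1-/- library over its PHD1+/+ partner (log axis, line at 1) in each class and pair, for all kept nuclei and for those with under 10 globin UMIs. Pair 3 runs from 0.0296 in endothelial-like to 12.8 in ependymal-like nuclei over all kept nuclei, and from 0.817 to 2.04 without globin-rich nuclei.

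Other genes of the pathway, in lists fixed by name, gave no genotype call over all nuclei. All counts below are from edgeR, and the median log2 fold change over all genes was -0.01. Of the haem synthesis genes, 0 of 9 tested rose and 0 fell, with a median of -0.08. The 3 with most UMIs were Cpox (0.13, SE 0.24), Fech (0.05, SE 0.21) and Alas1 (-0.09, SE 0.22), the last being the form of the first enzyme used outside red cells. Of the red cell membrane and cytoplasm genes, 0 of 21 tested passed in either direction, with a median of 0.01. Epb41, a membrane skeleton protein, was at 0.06 (SE 0.33), the carbonic anhydrase Car2 at -0.15 (SE 0.42) and the anchor protein Ank1 at 0.03 (SE 0.30). Of the erythroid transcription factors, 0 of 5 tested passed, with a median of -0.01.

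The same fit gave 0 calls in the genes for erythropoietin and for haemoglobin or haem clearance, of 10 tested, with a median of -0.12. Of genes from other cells of the blood, 0 of 6 neutrophil genes and 0 of 3 platelet genes passed, with medians of -0.44 and -0.12. The neutrophil log2 fold changes were above 0 in 0 of 6, with SE from 0.34 to 0.98, where 48.2% of all genes were above 0. Mitochondrial genome transcripts had a median of -0.46, with 0 of 13 past the test. The part of blood cells or of RNA quality in the globin values was not tested.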

How the data were processed

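Each deposited matrix gives the authors' unnormalised UMI counts for every barcode. Its header names Cell Ranger 5.0.1 as the program, while 5.0.2, Scanpy 1.8.1 and mm10 appear in the submitters' processing notes. The use of intronic reads and of strand is unknown from these sources. Every deposited barcode holds at least 500 UMIs. Nuclei were kept at 300 genes or more and under 5% mitochondrial UMIs, after Scrublet doublets were removed. They were clustered in scanpy 1.11.5 (2000 variable genes, without members or fixed lists, 30 components, 15 neighbours, Leiden resolution 1.0), and a class was named only from fixed markers. Depth limits each level to the counting intervals given, which cover counting error only.

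Counts summed per library were tested with edgeR 4.0.16 (TMM, filterByExpr, quasi-likelihood, Benjamini-Hochberg over all genes) in R 4.3.3. SE is the log2 fold change over the root of F. DESeq2 1.42.0 was an alternative. The test was checked on simulated data in which replicates 1 did not stand apart from the others. That check therefore does not cover the spread of these libraries. Labels name littermate pairs, and deviations of same-numbered libraries correlated at 0.829, 0.636 and 0.523 over 19303 genes. No label ties a number to a pair, and differently numbered libraries among replicates 2 and 3 correlated at 0.484 and 0.394. Nothing else says how samples were replicated, so p-values measure the spread between these libraries. The members, lists and markers were chosen with earlier results of these data known. Named genes were the 5 members, list genes past a test or else the 3 with most UMIs, and the 5 genes of highest r. Genes named outside this are said to be. Some genes that this rule names are not reported here. Alternatives are listed in the closing section. Coordinates and coding sequences come from GENCODE M21, promoters from RefSeq on GRCm38.p6.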

Additional observations from a re-analysis of the deposited data

How the results depend on the processing

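Leaving out 1 library at a time, the log2 fold changes over all nuclei ran from -0.57 to 1.69 (Hbb-bs), -0.18 to 1.46 (Hbb-bt), -0.69 to 2.47 (Hba-a1), -0.69 to 2.45 (Hba-a2) and -0.36 to 0.24 (Alas2). The 4 globin values were below 0 only without PHD1-/- replicate 1. Alas2 turned to 0.24 without PHD1+/+ replicate 2, 0.10 without PHD1-/- replicate 1 and 0.063 over all deposited barcodes. In neuron-like nuclei Alas2 ran from -0.40 to 0.16, and was 0.03 without PHD1-/- replicate 1. Hbb-bs in endothelial-like nuclei ran from -3.54 to 1.09, the last without PHD1+/+ replicate 3, and turned to 0.72 without globin-rich nuclei and to 0.66 when the pairs were also a block. With the replicate pairs as a block, 6 member tests in classes passed in place of 0. With replicates 2 and 3 only and the block, a setting added after the data were seen, 10 of 27 passed, where 0.361% of all tests did. The paired block changed no call over all nuclei. Mean levels of the 11 classes moved by less than 1 SD under every alternative run, and so did the group means, the depth ratios and the beta share, where the SD was often about as large as the mean. Unthinned, the mean share of nuclei with a globin UMI was 28.4% (OPC), 32.9% (Schwann), 30.2% (astrocyte), 30.7% (ependymal), 39.4% (fibroblast), 29.8% (neuron), 32.3% (newly formed oligodendrocyte) and 29.6% (oligodendrocyte), and thinned to 1000 UMIs it was 19.3% (astrocyte) and 13.4% (newly formed oligodendrocyte). By Spearman's rho, 1 of the 5 genes of most like pattern stayed among the top 5. Few endothelial-like nuclei, the shared reads of the gene pairs and 3 libraries a group limit what can be told.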

Other observations

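Fth1, the ferritin heavy chain, was at 9576, 512 and 1936 CPM in the globin-rich barcodes of PHD1+/+ replicates 1 to 3, with globin UMIs left out, against 2304, 628 and 602 in the rest. In PHD1-/- replicates 1 to 3 it was at 8411, 9623 and 3853 against 1324, 619 and 571. It was higher in 5 of 6 libraries, the exception being PHD1+/+ replicate 2, which has 13 globin-rich barcodes. Bnip3l, which removes mitochondria as red cells mature, was higher in all 6, by 1.84 on the log2 scale. Both are values for barcodes chosen by their globin UMIs, with no test, and Fth1 was picked after its values were seen.

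Neuron-like nuclei gave most of the Alas2 UMIs: 298 of 352 in kept nuclei of PHD1+/+ replicate 2 and 247 of 308 in PHD1-/- replicate 2. Oligodendrocyte-like nuclei of the same libraries gave 23 and 30. Alas2 was at 11.5 and 9.47 CPM in all kept nuclei of these libraries, not far below the neuron-like values given above. The counts thus largely follow the share of all UMIs that neuron-like nuclei hold. In replicates 1, below 10 globin UMIs, neuron-like nuclei gave 52 of 82 Alas2 UMIs (PHD1+/+) and 44 of 70 (PHD1-/-).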
